A study of Mus musculus with 10 samples.

Results

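The insulin-like growth factor (IGF) axis and the long non-coding RNA H19 were followed in the mouse trigeminal ganglion, the sensory ganglion of the face, through 10 genes: the ligands Igf1 and Igf2, the receptor Igf1r, the binding proteins Igfbp2 to Igfbp7, and H19. The 10 genes were found by Ensembl identifier and symbol among 57099 genes listed in either of the study's tables, 26411 in the surgery table and 55886 in the injection table. H19 was selected on its fold change after injection of urocortin 1 (UCN1), which was among the largest decreases, and the other 9 genes were listed with the results of both experiments known. Values of the injection experiment are therefore given as a description, with no p-value for these genes.

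RNA of 10 ganglion libraries was sequenced in 2 experiments. In the surgery experiment, 3 pIONT libraries were set against 3 sham libraries, all from ganglia taken on day 10 after the operation. In the injection experiment, 2 UCN1 libraries were set against 2 libraries of phosphate-buffered saline (PBS), all taken 6 hours after the ganglion was injected, so that both groups carry the injection itself. UCN1 is a peptide of the corticotropin-releasing factor family, and pIONT is the labels' name for the operation in this study of trigeminal neuropathic pain. Strain, sex, age and the number of animals per library are not given in the labels, so p-values here reflect the spread among libraries, which may be technical.

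IGF1 and IGF2 are secreted peptides that signal through the receptor tyrosine kinase IGF1R to the PI3 kinase and AKT pathway, and in nerve they are known as survival and growth factors for neurons and Schwann cells. Binding proteins hold the ligands outside the cell and release them when proteases such as PAPP-A cut them. H19 and Igf2 are imprinted neighbours that share enhancers, H19 being read from the maternal and Igf2 from the paternal chromosome. Both are abundant in the fetus and, in the adult brain and its coverings, Igf2 is known mainly from meninges and choroid plexus.

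In build GRCm38, the build that the coordinates of the injection table match, H19 (ENSMUSG00000000031) lies at chr7:142575529-142578143 and Igf2 at chr7:142650766-142666816, with 72622 bases between them. Igfbp2 and Igfbp5 are also neighbours, at chr1:72824503-72852474 and chr1:72857932-72874884, with 5457 bases between them. Igf1 (ENSMUSG00000020053) lies at chr10:87858265-87937042, Igf1r at chr7:67952827-68233668 and Igfbp3 (ENSMUSG00000020427) at chr11:7206086-7213923. H19 is also the host of Mir675, whose 84 annotated bases are 3.4% of the H19 exon bases. The mature miRNAs of this hairpin are shown because they are the known small RNA product of H19, the transcript whose fold change after UCN1 led to its selection, with the seed, bases 2 to 8, in capitals (RefSeq, GRCm38.p6).
mmu-miR-675-5p: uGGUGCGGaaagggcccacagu
mmu-miR-675-3p: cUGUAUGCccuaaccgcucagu
The 5p arm is at chr7:142577112-142577133 and the 3p arm at chr7:142577078-142577099, both on the minus strand. They do not share a seed. Mir675 itself was listed at 0 in the 4 injection libraries, in libraries not made for small RNA, and the arms were not measured here.

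Levels are in FPKM, which scale reads to the length of a gene and the depth of a library. Libraries held 24.1 to 29.6 M reads in genes after surgery and 15.7 to 17.1 M after injection. The authors' 2 tables rest on different gene lengths and annotations, so levels are compared within a table only. Genes with a mean of at least 0.5 FPKM over the libraries of a table were tested with limma on log2(FPKM + 0.5), and a gene is called at a Benjamini-Hochberg adjusted p under 0.05 over all tested genes of the table. The 8 sensory neuron markers summed to 5320 to 5560 FPKM in pIONT and 4210 to 4560 FPKM in sham, and to 4990 and 5090 FPKM in UCN1, against 4840 and 4880 FPKM in PBS. After surgery all 8 were called, 3 higher and 5 lower in pIONT, with a median log2 fold change of -0.27. Sham 1 and pIONT 2 stood apart from their groups. Pituitary hormone transcripts, of a gland that lies near the ganglia, summed to 767 FPKM in sham 1, against 80.9 and 255 FPKM in sham 2 and sham 3. Macrophage markers summed to 859 FPKM in pIONT 2, against 400 and 356 FPKM in pIONT 1 and pIONT 3. In these bulk samples, fewer cells of a type and less RNA per cell cannot be told apart.

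On day 10 after surgery the ligand Igf1 and the binding proteins Igfbp3 and Igfbp5 rose in pIONT ganglia. None of the 9 tested genes was called lower, though Igf1r and Igfbp2 had negative log2 fold changes, -0.19 and -0.28. Igfbp3 rose most, to a mean 2.58 times that of sham. Over all 14672 tested genes, 22.8% were called, 10.5% higher and 12.3% lower in pIONT. The median log2 fold change of the 9 genes was 0.37, against -0.02 over all tested genes. As the genes were listed with these results known, this median is a description. Libraries of the groups did not overlap for 6 of the 9 genes, and for 43.4% of all tested genes (18.7% higher and 24.7% lower in pIONT).

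Igf1, the ligand that the adult body makes mainly in the liver and also locally in many tissues, had 3.290, 4.186 and 3.512 FPKM in pIONT 1 to 3, against 2.811, 2.617 and 2.672 FPKM in sham 1 to 3. Every pIONT library was above every sham library, and the sham libraries lay close together. The means were 3.66 ± 0.467 FPKM in pIONT and 2.70 ± 0.10 FPKM in sham (SD, n = 3 each). The log2 fold change was 0.37 (SE 0.09, adjusted p = 0.024 in limma). The call was lost when any 1 of the sham libraries was left out, at adjusted p = 0.0524, 0.0722 and 0.0796 without sham 1, sham 2 and sham 3, and the log2 fold change was 0.36 to 0.40 in those fits. It was also lost without sham 1 and pIONT 2 together, at 0.31 and adjusted p = 0.0601.

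Igf2, the fetal ligand, was near the limit of detection after surgery. It had 0.1162, 0.2337 and 0.0531 FPKM in pIONT, against 0.306, 0.0365 and 0.0797 FPKM in sham. These values correspond to 17, 39 and 9 reads in pIONT, and to 48, 6 and 11 reads in sham. The groups overlapped, and sham 1 held the highest value of all 6. Sham 1 also had the highest sums of pituitary and meningeal markers, at 767 and 152 FPKM. The part of either tissue in the Igf2 values was not tested. Igf2 did not reach the level needed for the test. The 65 reads of pIONT against 65 reads of sham gave a rate ratio of 0.951, with an exact 95% interval of 0.664 to 1.36 that covers counting error only. In the annotation used here, GENCODE vM21, 62.8% of the Igf2 exon bases also belong to the protein-coding gene Gm49394 on the same strand, and how reads were assigned there was not given in the sources used here.

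Igf1r, the receptor through which both ligands signal, had 2.805, 2.706 and 3.033 FPKM in pIONT, against 3.344, 3.307 and 3.308 FPKM in sham. Every pIONT library was below every sham library. The log2 fold change was -0.19 (SE 0.06), with an adjusted p of 0.0581 in limma that missed the threshold, and it was called lower under 4 of 17 alternative fits. The ratio of Igf1r to Igf1 within a library was 0.853, 0.646 and 0.864 in pIONT, against 1.19, 1.26 and 1.24 in sham. Igf1r thus stood above Igf1 in each sham library and below it in each pIONT library.

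**Figure D1:**
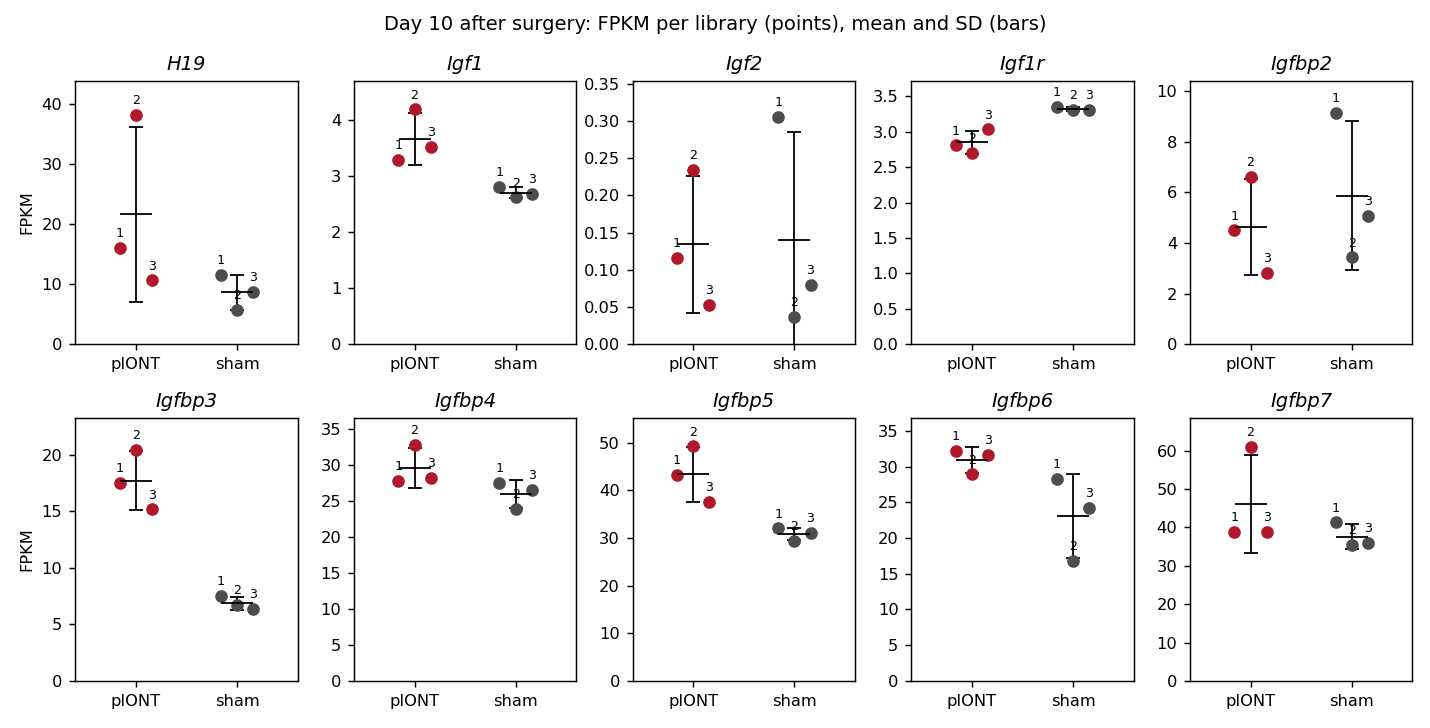
FPKM of the 10 genes in each library of the surgery experiment, pIONT left of sham, with numbered points for libraries and bars for the mean and SD (n = 3 each). The groups do not overlap for Igf1, Igf1r, Igfbp3, Igfbp4, Igfbp5 and Igfbp6, and pIONT 2 is the highest pIONT library for H19 at 38.20 FPKM.

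Among the binding proteins, Igfbp3, the main carrier of IGF1 in blood, had 17.56, 20.47 and 15.18 FPKM in pIONT, against 7.508, 6.724 and 6.387 FPKM in sham. The lowest pIONT library was above the highest sham library by a wide margin. Means were 17.7 ± 2.65 FPKM in pIONT and 6.87 ± 0.575 FPKM in sham (SD, n = 3 each). The log2 fold change was 1.30 (SE 0.11, adjusted p = 0.000588 in limma), which ranked 144 from the top of the 14672 tested genes. Without sham 1 and pIONT 2 it was 1.25 (adjusted p = 0.00299 in limma).

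Igfbp5, the most conserved of the binding proteins and one that binds matrix as well as IGFs, had 43.28, 49.25 and 37.53 FPKM in pIONT, against 32.02, 29.39 and 31.08 FPKM in sham. The groups did not overlap. Means were 43.4 ± 5.86 FPKM in pIONT and 30.8 ± 1.33 FPKM in sham (SD, n = 3 each). The log2 fold change was 0.48 (SE 0.09, adjusted p = 0.0137 in limma). It was 0.41 without sham 1 and pIONT 2 (adjusted p = 0.0386 in limma), and the call was lost without sham 3 (adjusted p = 0.051 in limma).

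The other 4 binding proteins were not called. Igfbp6, which prefers IGF2, had 32.19, 28.90 and 31.68 FPKM in pIONT, against 28.29, 16.80 and 24.17 FPKM in sham, with a log2 fold change of 0.44 (SE 0.17, adjusted p = 0.107 in limma). The groups did not overlap, but sham 1 lay just below the lowest pIONT library, and the log2 fold change was 0.60 without sham 1 (adjusted p = 0.0452 in limma) and 0.24 without sham 2 (adjusted p = 0.115 in limma). Igfbp4, an inhibitory carrier that PAPP-A cuts, averaged 29.6 ± 2.78 FPKM in pIONT and 26.0 ± 1.89 FPKM in sham (SD, n = 3 each), without overlap and with a log2 fold change of 0.18 (SE 0.08, adjusted p = 0.145 in limma). Igfbp7, which binds IGFs only weakly and is best known from vessel walls, averaged 46.2 ± 12.8 FPKM in pIONT and 37.6 ± 3.22 FPKM in sham (SD, n = 3 each). Only pIONT 2, at 60.98 FPKM, stood above all sham libraries, and the log2 fold change of 0.26 (adjusted p = 0.316 in limma) was 0.05 without it. Igfbp2, a carrier found in cerebrospinal fluid, had 4.490, 6.591 and 2.816 FPKM in pIONT, against 9.127, 3.428 and 5.053 FPKM in sham. Its groups overlapped, sham 1 was again the highest library, and the log2 fold change of -0.28 (SE 0.37, adjusted p = 0.626 in limma) was 0.07 without sham 1.

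Summed over Igfbp2 to Igfbp7, binding protein transcripts came to 164, 199 and 154 FPKM in pIONT, against 146, 116 and 129 FPKM in sham. Igfbp3 made up 10.7%, 10.3% and 9.85% of that sum in pIONT, against 5.15%, 5.81% and 4.94% in sham. The share of Igfbp5 was 24.3% to 26.4% in pIONT and 22.0% to 25.4% in sham, so these ranges overlapped. Igfbp5 therefore stood at 2.41 to 2.47 times Igfbp3 in the pIONT libraries and at 4.26 to 4.87 times in the sham libraries.

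H19, a transcript of fetal and regenerating tissue, had 15.97, 38.20 and 10.63 FPKM in pIONT, against 11.48, 5.752 and 8.659 FPKM in sham. The reads behind these values were 1006, 2742 and 774 in pIONT, and 775, 406 and 514 in sham. The groups overlapped, because pIONT 3 lay below sham 1, and pIONT 2 was the highest library by far. The mean was 21.6 ± 14.6 FPKM in pIONT and 8.63 ± 2.87 FPKM in sham (SD, n = 3 each), a coefficient of variation of 67.7% in pIONT and 33.2% in sham. The log2 fold change of 1.12 (SE 0.45) was not called (adjusted p = 0.119 in limma), and without pIONT 2 it was 0.62 (adjusted p = 0.211 in limma).

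Marker genes of other cell types moved with some of these values. Of 10 macrophage markers, 6 were called, all higher in pIONT. Their sum was 356 to 859 FPKM in pIONT and 165 to 306 FPKM in sham, and no marker was at 0. The 3 most abundant were Lyz2, C1qa and Ctss, and Ctss had 53.1, 128 and 48.7 FPKM in pIONT, against 29.5, 11.3 and 15.2 FPKM in sham. Of 9 tested fibroblast markers, 1 was higher (Clec3b) and 1 lower (Mfap5), both named after their values were seen. The sum of the list was 235 to 359 FPKM in pIONT and 198 to 257 FPKM in sham. pIONT 2, the highest pIONT library in both sums, was also the highest pIONT library for H19, Igf1, Igf2, Igfbp2, Igfbp3, Igfbp4, Igfbp5 and Igfbp7. Of 6 Schwann cell markers, 5 were called lower, and their sum was 3740 to 4010 FPKM in pIONT and 4510 to 5000 FPKM in sham. Of 6 perineurial markers 2 were higher and 1 lower, of 6 satellite glia markers 2 were higher, and of 8 endothelial markers 2 were lower. The part of these cells in the results was not tested. Over all tested genes 22.8% were called, and no marker list was tested against that share. Meningeal markers, of which 0 of 10 tested were called, summed to 130 to 137 FPKM in pIONT and 111 to 152 FPKM in sham. This meningeal sum is mostly Ogn, at 130, 103 and 105 FPKM in sham 1 to 3. Of the less abundant markers, Slc22a8 had 1.33, 0.116 and 0.456 FPKM in sham 1 to 3, and Aldh1a2 had 3.47, 1.09 and 2.13 FPKM. Slc22a2 was highest in sham 3, at 0.534 FPKM, against 0.47 FPKM in sham 1. These markers are named after their values were seen. Pituitary markers, of which 0 of 5 tested were called, summed to 117 to 132 FPKM in pIONT and 80.9 to 767 FPKM in sham. Sham 1, the highest library in that sum, was the highest sham library for all 10 axis genes.

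The 250 bases before a RefSeq start of the 3 genes that rose are shown, with matches to a TATA element (TATANA) or an AP-1 element (TGANTCA), on either strand, in capitals (RefSeq, GRCm38.p6).
Igfbp3: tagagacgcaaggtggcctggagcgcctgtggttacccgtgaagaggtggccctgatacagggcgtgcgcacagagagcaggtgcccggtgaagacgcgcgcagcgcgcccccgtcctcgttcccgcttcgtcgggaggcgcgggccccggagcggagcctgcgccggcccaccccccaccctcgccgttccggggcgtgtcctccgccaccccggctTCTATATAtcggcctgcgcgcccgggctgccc
Igfbp5: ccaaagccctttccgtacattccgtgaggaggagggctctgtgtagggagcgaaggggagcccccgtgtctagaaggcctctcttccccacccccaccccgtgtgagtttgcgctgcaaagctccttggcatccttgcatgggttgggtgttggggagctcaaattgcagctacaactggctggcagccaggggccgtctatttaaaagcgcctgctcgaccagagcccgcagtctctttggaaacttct
Igf1: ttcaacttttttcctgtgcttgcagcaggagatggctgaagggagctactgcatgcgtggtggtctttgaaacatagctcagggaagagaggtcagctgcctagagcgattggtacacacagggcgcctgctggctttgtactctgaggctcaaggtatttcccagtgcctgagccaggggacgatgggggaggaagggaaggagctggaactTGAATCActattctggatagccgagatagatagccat
These windows are chr11:7213924-7214173 on the minus strand, chr1:72874866-72875115 on the minus strand and chr10:87860861-87861110 on the plus strand. The Igf1 window lies inside the coordinates given above for the gene, so it precedes a start within the gene and not its first base. The Igfbp5 window reaches down to base 72874866, below the gene end at 72874884. Its start therefore also lies a few bases inside the gene. The Igfbp3 window holds overlapping TATA matches 32 and 30 bases before the start. The Igf1 window holds an AP-1 match 37 bases before the internal start of Igf1. Of 32851 promoter windows of this length, 22.6% hold the TATA letters and 6.75% the AP-1 letters. Of 13 starts of the axis genes with an entry, 3 hold the TATA letters, 2 the AP-1 letters and 0 the cyclic AMP response element TGACGTCA, which 1.55% of all windows hold. The letters searched were chosen after the sequences were seen, and a match is not evidence of binding.

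Beyond these genes, 83 further genes of the pathway were listed, and 65 of them were tested after surgery. Of these, 15 were higher and 10 lower in pIONT, with a median log2 fold change of -0.02. Over all tested genes, 10.5% were higher and 12.3% lower, and neither this list nor its parts were tested against those shares. Among 6 tested binding proteins and regulators, 2 were higher and 2 lower. Pappa2, a protease that cuts IGFBP3 and IGFBP5, and Pappa, which cuts IGFBP4, rose. Pappa2 had 2.55, 2.37 and 1.76 FPKM in pIONT, against 0.266, 0.159 and 0.193 FPKM in sham (log2 fold change 1.94, SE 0.14, adjusted p = 0.000256 in limma). Pappa averaged 2.39 ± 0.145 FPKM in pIONT and 0.851 ± 0.158 FPKM in sham (SD, n = 3 each; log2 fold change 1.10, adjusted p = 0.000948 in limma). For both proteases the groups were far apart. Kazald1, a protein with an IGFBP domain, and the protease Htra1 fell by 0.50 and 0.14 on the log2 scale (adjusted p = 0.0266 and 0.0472 in limma). Igfbp1, which lies 3539 bases from Igfbp3, was at or near 0 in every library.

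Of 26 tested signalling genes below the receptor, 5 were higher and 6 lower, with a median of -0.11. Irs2, the docking protein that links the receptor to PI3 kinase, had 15.8, 17.0 and 14.2 FPKM in pIONT, against 7.85, 7.11 and 7.48 FPKM in sham (log2 fold change 1.02, SE 0.07, adjusted p = 0.000285 in limma). The adaptor Grb10, itself imprinted and an inhibitor of the receptor, rose by 0.70 on the log2 scale (adjusted p = 0.00632 in limma). The kinase Akt1 rose by 0.27 on the log2 scale (adjusted p = 0.00958 in limma).

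Growth hormone is the main inducer of Igf1 in the liver. Transcripts of 6 genes of its route through STAT5 were listed, of which 4 were higher and 1 lower. Whether growth hormone signalling changed, or had a part in the Igf1 values, was not tested. The feedback inhibitors Socs2 and Cish rose by 0.50 and 0.38 on the log2 scale (adjusted p = 0.00477 and 0.0112 in limma). The transcription factors Stat5a and Stat5b rose by 0.47 and 0.32 (adjusted p = 0.00661 and 0.0108 in limma). The receptor Ghr, named after its values were seen, fell by 0.21 (adjusted p = 0.047 in limma). Growth hormone itself, Gh, is a pituitary transcript and had 116, 107 and 117 FPKM in pIONT, against 546, 74.0 and 243 FPKM in sham, with overlap.

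The receptors Igf2r, which clears IGF2, and Insr, the insulin receptor, were not called. Igf2r averaged 4.83 FPKM in pIONT and 4.56 FPKM in sham (log2 fold change 0.08, adjusted p = 0.288 in limma), and Insr averaged 2.82 FPKM in both. Among 3 tested RNA-binding proteins, Igf2bp2, which binds Igf2 mRNA, averaged 1.85 ± 0.323 FPKM in pIONT and 1.05 ± 0.127 FPKM in sham (SD, n = 3 each; log2 fold change 0.59, adjusted p = 0.0142 in limma). Of 17 tested imprinted genes, 3 were higher (Plagl1, Rian and Ndn, by 0.18 to 0.26 on the log2 scale) and 1, Peg10, was lower (log2 fold change -0.36, adjusted p = 0.0148 in limma). Of 4 tested neighbours of H19 and Igf2, 0 were called, and the most abundant, Cd81, had a log2 fold change of 0.18 (adjusted p = 0.103 in limma). Of the calls named among these pathway genes, Ghr and Htra1 were kept in 6 of 17 alternative fits, Ndn in 7, and Rian and Kazald1 in 10.

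**Figure D2:**
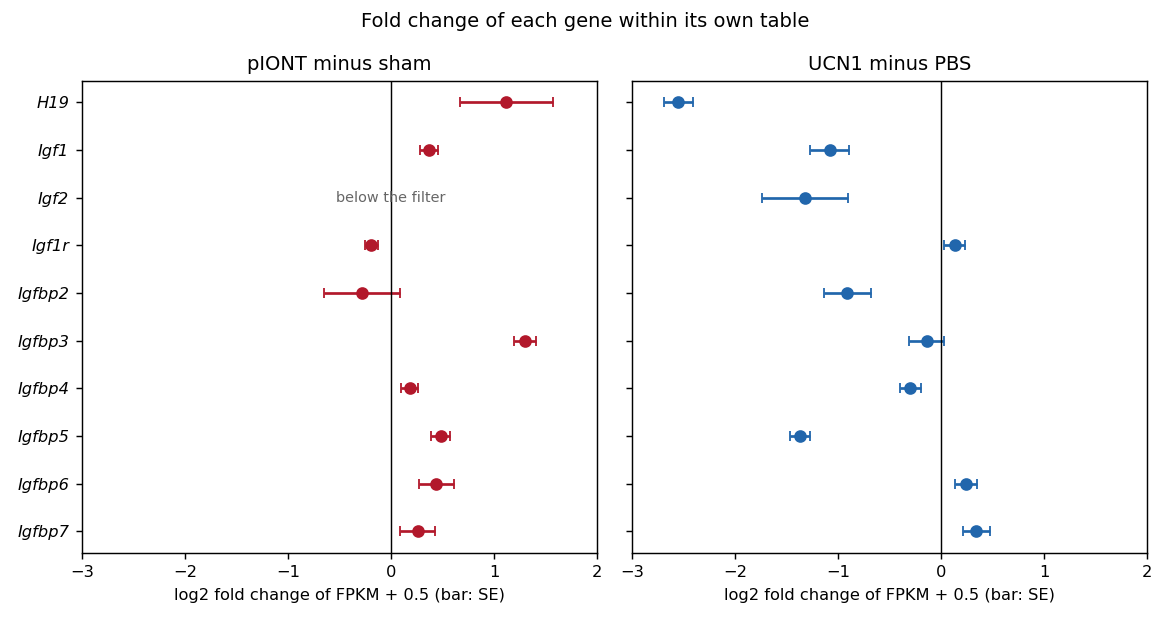
Log2 fold change of FPKM + 0.5 for each gene, with bars for the SE, pIONT minus sham in the left panel (n = 3 each) and UCN1 minus PBS in the right panel (n = 2 each). Igfbp3 lies at 1.30 in the left panel and H19 at -2.55 in the right panel, and Igf2 is below the level filter in the left panel.

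At 6 hours after UCN1, H19, Igf2 and Igfbp5 had values far below those of PBS, with means 0.157, 0.0618 and 0.381 times those of PBS, and Igf1 and Igfbp2 were lower as well. In the limma fit over 16139 tested genes, 0.601% were called, 0.304% higher and 0.297% lower in UCN1. H19 and Igfbp5 were among the 48 genes called lower, from which nothing is read, since that comparison chose H19. The median log2 fold change of the 10 genes was -0.60, against -0.01 over all tested genes. Since these genes include H19 and were listed with the results known, nothing is read from this median or from the overlap count. Libraries of the groups did not overlap for 9 of the 10 genes, and with 2 libraries a group this was so for 45.5% of all tested genes (21.8% higher and 23.7% lower in UCN1).

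H19 had 5.181 and 5.010 FPKM in UCN1 1 and 2, against 35.57 and 29.40 FPKM in PBS 1 and 2. The reads were 110 and 103 in UCN1, and 695 and 624 in PBS. Both UCN1 libraries were far below both PBS libraries and close to each other. The mean in UCN1 was 0.157 times that in PBS, with an exact 95% interval of 0.135 to 0.182 from the summed reads that covers counting error only. The log2 fold change of -2.55 (SE 0.14) ranked 17 from the bottom of the 16139 tested genes. Because H19 was selected on this fold change, the interval and the rank describe the selection and are no test of it.

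Of the ligands, Igf1 had 9.854 and 6.321 FPKM in UCN1, against 17.81 and 16.70 FPKM in PBS. The groups did not overlap, and the UCN1 libraries differed from each other more than the PBS libraries did. The mean in UCN1 was 0.469 times that in PBS, and the log2 fold change was -1.08 (SE 0.19). Igf2 had 0.05864 and 0.06056 FPKM in UCN1, against 1.402 and 0.5279 FPKM in PBS. That is 2 reads in each UCN1 library, against 44 and 18 reads in the PBS libraries. The summed reads gave a rate ratio of 0.0628, with an exact 95% interval of 0.0166 to 0.169 for counting error only. The interval leaves out the spread between libraries. As Igf2 was listed with these results known, it is a description and no test. Gm49394, the gene that shares most of the Igf2 exon bases, was listed at 0 in the 4 libraries.

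Igf1r had 28.04 and 26.14 FPKM in UCN1, against 25.00 and 24.55 FPKM in PBS, a log2 fold change of 0.13 (SE 0.10). The ratio of Igf1r to Igf1 within a library was 2.85 and 4.14 in UCN1, against 1.40 and 1.47 in PBS. The receptor was thus slightly higher while its ligand was lower, and the ratios of the groups did not overlap.

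**Figure D3:**
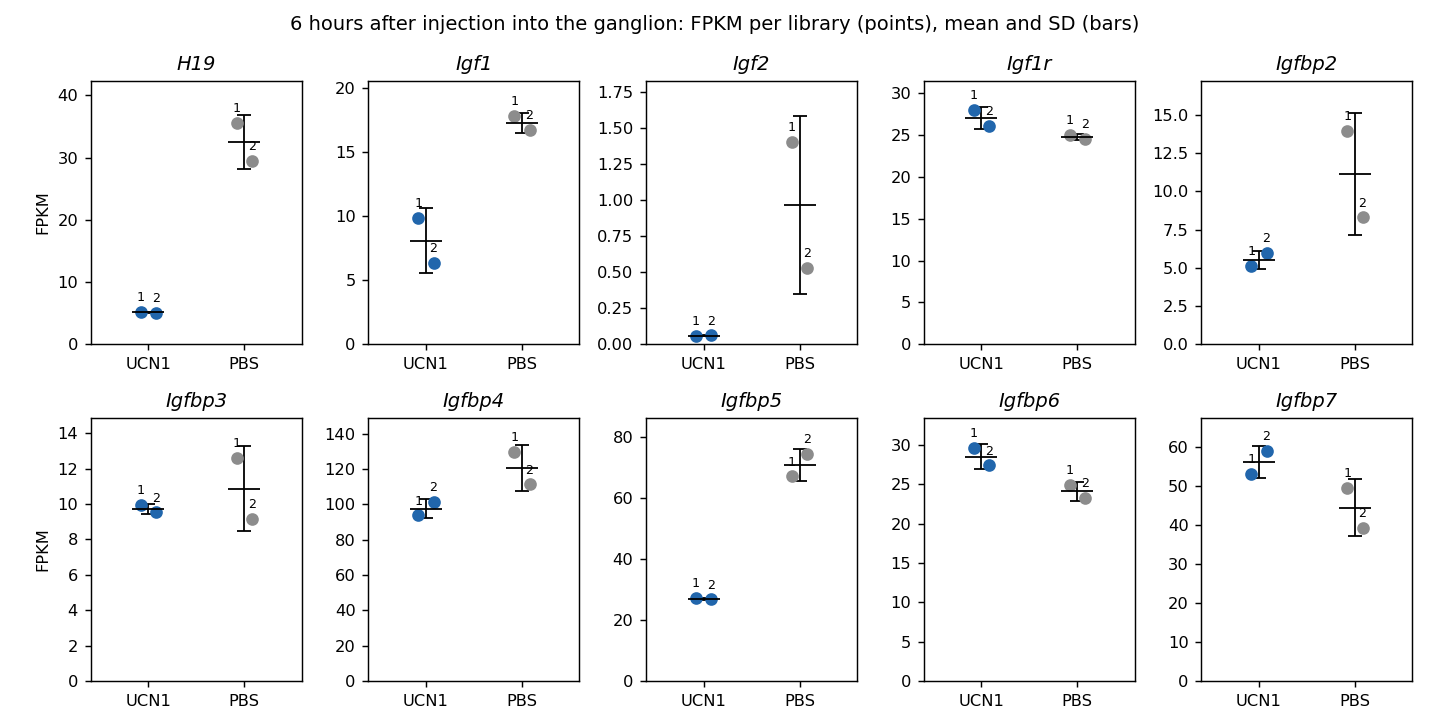
FPKM of the 10 genes in each library of the injection experiment, UCN1 left of PBS, with numbered points for libraries and bars for the mean and SD (n = 2 each). H19 lies at 5.181 and 5.010 FPKM in UCN1 and at 35.57 and 29.40 FPKM in PBS, and Igfbp3 is the gene whose groups overlap.

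Igfbp5 had 27.27 and 26.78 FPKM in UCN1, against 67.15 and 74.58 FPKM in PBS, from 2393 and 2276 reads in UCN1 and 5422 and 6536 reads in PBS. The groups were far apart. The mean in UCN1 was 0.381 times that in PBS (log2 fold change -1.37, SE 0.10). Its chromosomal neighbour Igfbp2 had 5.107 and 5.954 FPKM in UCN1, against 13.96 and 8.294 FPKM in PBS, a log2 fold change of -0.91 (SE 0.23). The groups of Igfbp2 did not overlap, and the spread between its PBS libraries was wide. Igfbp4 had 93.74 and 101.5 FPKM in UCN1, against 129.6 and 111.3 FPKM in PBS (log2 fold change -0.30, SE 0.10).

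Igfbp6 and Igfbp7 had higher values in UCN1. Igfbp6 had 29.59 and 27.39 FPKM in UCN1, against 24.93 and 23.21 FPKM in PBS (log2 fold change 0.24, SE 0.11). Igfbp7 had 53.22 and 59.04 FPKM in UCN1, against 49.58 and 39.21 FPKM in PBS (log2 fold change 0.34, SE 0.13). It was 0.51 without PBS 1 and 0.18 without PBS 2. In the annotation, 7.0% of the Igfbp7 exon bases lie opposite Polr2b, whose reads cannot be told apart there if strand was not kept. Igfbp3 was the gene whose groups overlapped, at 9.940 and 9.531 FPKM in UCN1, against 12.59 and 9.175 FPKM in PBS. Its log2 fold change of -0.14 (SE 0.17) was 0.08 without PBS 1.

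Binding protein transcripts summed to 219 and 230 FPKM in UCN1, against 298 and 266 FPKM in PBS. Igfbp5 made up 12.5% and 11.6% of the sum in UCN1, against 22.5% and 28.1% in PBS. Igfbp7 made up 24.3% and 25.7% in UCN1, against 16.6% and 14.8% in PBS. Igfbp4, the largest component, held 42.8% and 44.1% in UCN1, against 43.5% and 41.9% in PBS, with overlap.

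**Figure D4:**
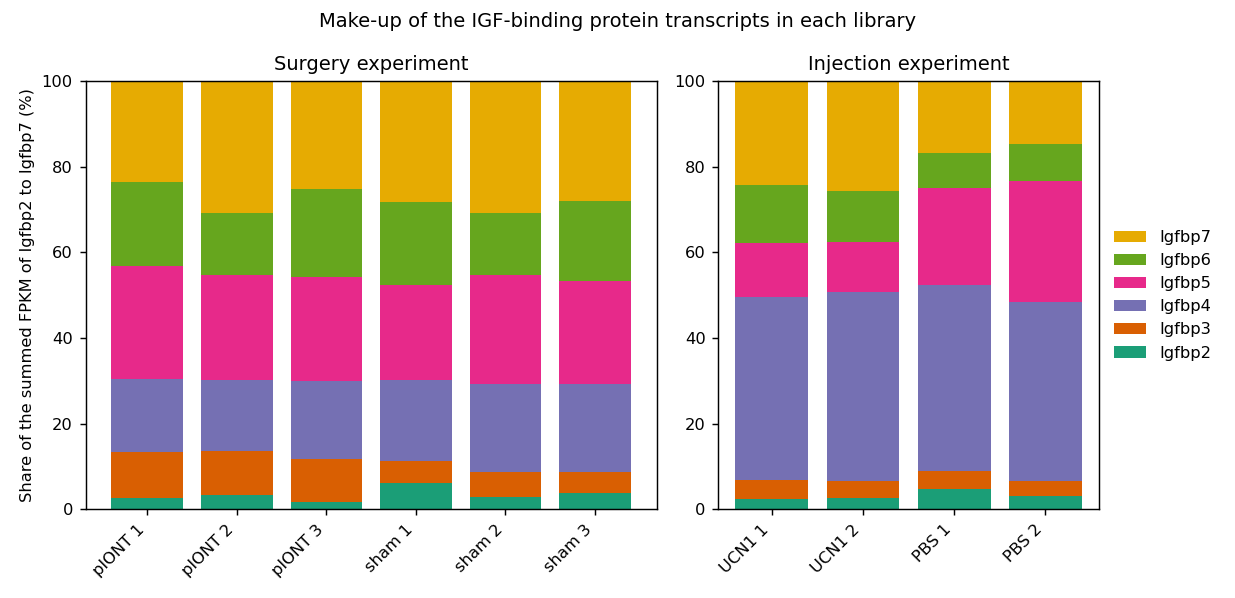
Share of each binding protein in the summed FPKM of Igfbp2 to Igfbp7, one bar per library, pIONT left of sham and UCN1 left of PBS. The Igfbp3 share is 9.85% to 10.7% in pIONT and 4.94% to 5.81% in sham, and the Igfbp5 share is 11.6% to 12.5% in UCN1 and 22.5% to 28.1% in PBS.

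Some pituitary transcripts also differed between the injection groups, and other marker lists are given beside them. Of 9 pituitary markers, 5 were tested and 3 were called lower in UCN1 (Gh, Prl and Pomc). The sum of the list was 9.17 and 9.61 FPKM in UCN1, against 124 and 124 FPKM in PBS. Gh had 5.17 and 6.60 FPKM in UCN1, against 103 and 104 FPKM in PBS. Lhb was at 0 in all 4 libraries, Fshb and Pou1f1 were at 0 in both UCN1 libraries, and Cga and Ghrhr were at 0 in UCN1 2. Of 11 tested meningeal markers, 0 were called, and the median log2 fold change was -0.47. Meningeal markers summed to 161 and 120 FPKM in UCN1, against 211 and 165 FPKM in PBS, a sum that is mostly Ogn. The transcription factor Zic4 was at 0 in both UCN1 libraries, against 0.598 and 0.861 FPKM in PBS, while Aldh1a2, also a meningeal marker, had 1.71 and 2.35 FPKM in UCN1, against 0.816 and 1.01 FPKM in PBS. Both genes are named after their values were seen. Fibroblast markers summed to 912 and 891 FPKM in UCN1, against 1110 and 852 FPKM in PBS, and 0 of 8 tested were called. Choroid plexus markers summed to 2.55 and 2.65 FPKM in UCN1, against 2.82 and 2.97 FPKM in PBS. Endothelial markers, of which 0 of 8 were called, summed to 125 and 127 FPKM in UCN1, against 108 and 90.2 FPKM in PBS. Most of that difference is Ly6c1, at 60.5 and 58.5 FPKM in UCN1, against 40.3 and 28.3 FPKM in PBS. The others went both ways. Pecam1, Cdh5, Cldn5 and Tek had log2 fold changes of 0.07 to 0.21, and Kdr, Flt1 and Tie1 of -0.23 to -0.18. The part of these tissues in the values of the axis genes was not tested.

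**Figure D5:**
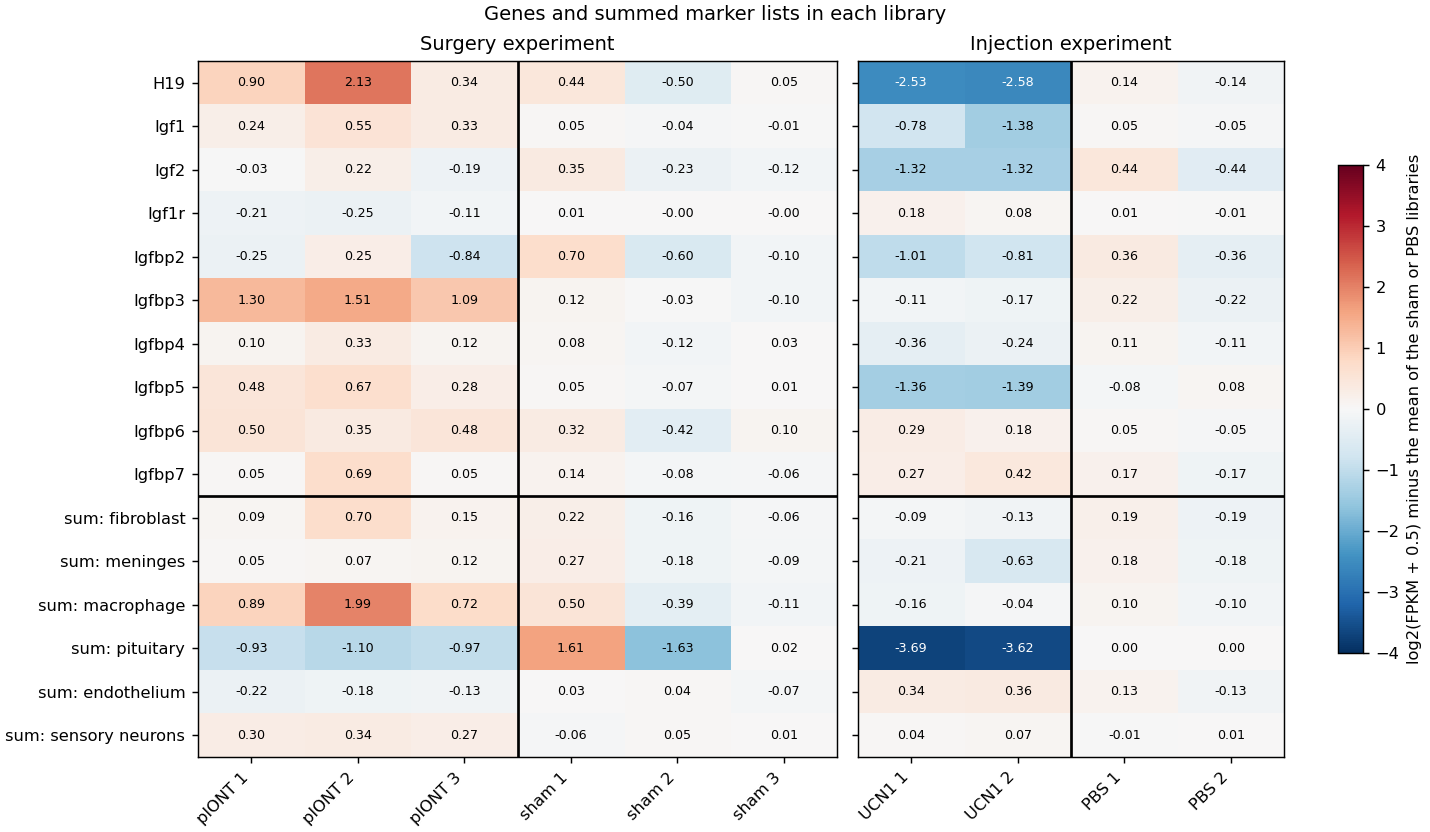
Level of each gene (upper rows) and of each summed marker list (lower rows) in each library, as log2(FPKM + 0.5) minus the mean of the sham or PBS libraries, with red above and blue below that mean. pIONT 2 holds the highest H19 value of its experiment, at 2.13, and the pituitary sum lies at -3.69 and -3.62 in UCN1, beside H19 at -2.53 and -2.58.

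Of the 83 other pathway genes, 68 were tested after injection, with 1 called higher and 1 lower in UCN1 and a median log2 fold change of 0.03. The imprinted gene Peg10, a placental gene of retrotransposon origin, had 6.77 and 6.06 FPKM in UCN1, against 2.71 and 2.93 FPKM in PBS (log2 fold change 1.06, SE 0.17, adjusted p = 0.0487 in limma). Adam12, a metalloprotease known to cut binding proteins, had 2.84 and 2.71 FPKM in UCN1, against 7.19 and 5.89 FPKM in PBS (log2 fold change -1.10, SE 0.18, adjusted p = 0.0488 in limma). For each the groups were well apart, but each call was kept in 7 of 14 alternative fits. Among 26 signalling genes 0 were called, and the most abundant, Akt1, averaged 265 ± 11.7 FPKM in UCN1 and 247 ± 4.84 FPKM in PBS (SD, n = 2 each; adjusted p = 0.617 in limma). Among 6 genes of the growth hormone route 0 were called, with Ghr at a log2 fold change of -0.18 (adjusted p = 0.552 in limma). Among the receptors and RNA-binding proteins 0 of 3 and 0 of 3 were called, with Igf2r at 0.16 and Igf2bp2 at 0.29 (adjusted p = 0.615 and 0.518 in limma). Of 4 tested neighbours of H19 and Igf2, 0 were called, and Cd81 had a log2 fold change of -0.05 (adjusted p = 0.902 in limma).

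Side by side, Igf1 and Igfbp5 rose after pIONT and had lower values after UCN1, and the difference between the experiments was not tested. Pappa2 likewise rose after pIONT and had 1.03 and 1.06 FPKM in UCN1, against 5.09 and 2.88 FPKM in PBS (log2 fold change -1.50, adjusted p = 0.0835 in limma), a value named after it was seen. Within each group the order of levels was led by binding proteins. In pIONT, Igfbp7 and Igfbp5 led and did not differ beyond their SD. They were followed by Igfbp6, Igfbp4, H19 and Igfbp3, each neighbour within the SD of the next, and Igf1r was above Igf2 alone. In sham, Igfbp7 led, followed by Igfbp5, and H19, Igfbp3, Igfbp2 and Igf1r each overlapped the next within their SD. In UCN1, Igfbp4 led at 97.6 FPKM, followed by Igfbp7, with Igfbp6, Igf1r and Igfbp5 next and not apart beyond their SD. H19 stood at 5.10 FPKM in UCN1, within the SD of Igfbp2 and above Igf2 alone. In PBS, Igfbp4 led at 120.5 FPKM, followed by Igfbp5, Igfbp7 and H19, each apart from the next. Igf2 was the lowest gene in every group, at 0.134 ± 0.0917 FPKM in pIONT, 0.141 ± 0.145 FPKM in sham, 0.0596 ± 0.00135 FPKM in UCN1 and 0.965 ± 0.618 FPKM in PBS (SD).

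Across the 10 libraries, each centred on its own table, H19 was most like Igfbp5 among the other axis genes, with r = 0.95, and next most like Igfbp4, with r = 0.92. Centred on group means instead, these values were 0.85 and 0.80. On that measure H19 with Igfbp7 was 0.88, against 0.14 centred on the table, and H19 with Igfbp2 was 0.86, against 0.66. The order of likeness to H19 thus differed between the measures. The values centred on the table include the decrease after UCN1 on which H19 was selected. Igf2 with Igfbp2 gave 0.84 and, within groups, 0.87, values that rest on the few Igf2 reads. Igf1 with Igfbp5 gave 0.93 but 0.32 within groups, so that relation lay mostly between the groups. H19 with Igf1r gave -0.79 and -0.59. Libraries of an experiment share a table and its groups and differ in depth and tissue make-up, and these values describe the 10 libraries only.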

How the data were processed

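The authors deposited FPKM values for each experiment separately, per the file headers, with gene identifiers and coordinates. STAR, HTSeq and DESeq2 and the build GRCm39 are named, with no version or role, per the submitters' processing notes. Libraries were made from total RNA with a NEBNext kit, per the labels' protocols, and whether strand was kept was not given in the sources used here. Symbols were taken from GENCODE vM21 by identifier, for 25166 rows of the surgery table and 55141 of the injection table. Start and end equal those of that annotation for 99.42% of matched injection rows and 1.96% of matched surgery rows.

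Multiplied by gene length, low FPKM values were whole reads (within 0.1, under 20 reads) for 91.8% to 92.3% of genes in the surgery libraries, with the union of exons as length. With mean transcript length they were whole for 98.8% to 99.0% in the injection libraries. These steps gave the depths and reads. Limma 3.58.1 in R 4.3.3 was run per table on log2(FPKM + 0.5), 2-sided and without covariates, with the mean-variance trend switched on, for genes with a mean of at least 0.5 FPKM. Fold changes on this scale understate those of low genes. The script was tested on simulated data.

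The 10 genes and all lists were chosen with earlier results of these data known. Named beyond them were up to 4 called genes per pathway list by smallest p, or else up to 2 by level, up to 3 markers per list by level, and the 5 genes most like H19, Igf2 and Igf1. The values of 1 gene that this rule took are not reported here. Alternatives covered the pseudocount, the filter, scaling, trend, weights, voom on recovered reads, a replicate block and leaving out libraries. Columns of the injection table numbered 1 and 3 belong to libraries titled 1 and 2.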

Additional observations from a re-analysis of the deposited data

How the results depend on the processing

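Igfbp3 was called higher in pIONT under 17 of 17 alternatives, Igfbp5 under 16 and Igf1 under 11. H19 was called under 0 of 17, at 0.62 to 1.52. Igf1r was called lower under 4 of 17 (TPM, no trend, voom and without pIONT 3) and Igfbp6 higher under 1. Of the axis genes, 1 to 4 were called when single libraries were left out, with Igfbp3 alone called without sham 3, and 2 without sham 1 and pIONT 2 together, a fit added after the data were seen. Over all genes, 3344 were called after surgery, 1656 in that added fit and 1689 to 2969 without single libraries. Igfbp2 after surgery was -0.28 in the fit reported and -0.58 to 0.07 without single libraries, with 0.07 without sham 1 and 0.00 without pIONT 3. Igfbp3 after injection was -0.14 in the fit reported and -0.36 to 0.08 without single libraries, with 0.08 without PBS 1. The cause was not tested.

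After injection 97 genes were called. This was 2 with no filter, 155 with a filter at 2 FPKM, 5 with no trend, 352 with voom on recovered reads and 5 to 38 without single libraries. The axis genes among them numbered 2, and 0 with no filter, 0 with no trend and 4 with voom. Nothing is read from these counts, since that comparison chose H19. H19 lay between -2.69 and -2.42, Igfbp5 between -1.45 and -1.30, and Igf1 between -1.38 and -0.78. Igf2 lay between -3.53 and -0.85, since its UCN1 level is below the pseudocount. It was below the filter, with no value, at 2 FPKM and without PBS 1.

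The replicate numbers do not pair the libraries: deviations of same-numbered libraries correlated at -0.0551, -0.202 and 0.0676 after surgery and at 0.0387 after injection. With a replicate block, 2085 genes were called after surgery, 2 of them axis genes without Igf1 (adjusted p = 0.0612 in limma). After injection 260 were called, 3 of them axis genes, from which nothing is read for the same reason.

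Depth limits Igf2, read from 6 to 48 reads per surgery library and 2 per UCN1 library.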

Other observations

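Over 13833 genes tested in both tables and all 10 libraries, centred on each table, the genes whose pattern was most like H19 were Kctd12 (r = 0.995), Fxyd5 (0.979), Shisa3 (0.976), Mrc2 (0.966) and Fkbp10 (0.964). Within groups the same r was 0.97 for Kctd12, a subunit of GABA-B receptors, 0.94 for Mrc2, a collagen receptor, and 0.92 for Fkbp10, a collagen chaperone. Genes most like Igf1 were Snx4 (0.981), Rnf149 (0.976), Mindy2 (0.976), Siah1a (0.976) and Ncl (0.974). Genes most like Igf2 were Kdelr3 (0.97), Prrg4 (0.964), E2f5 (0.964), Ginm1 (0.963) and Sephs1 (0.962). Igf2 itself was below the level filter after surgery and had 2 reads in each UCN1 library, so its r values rest on few reads. All genes named here were picked as the highest of 13833 values over 10 libraries that share groups and tissue make-up. They are a description of these libraries.

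The ratio of H19 to Igf2, neighbours read from opposite parental chromosomes, was 137, 163 and 200 in pIONT, against 37.5, 158 and 109 in sham, with overlap. It was 88.4 and 82.7 in UCN1, against 25.4 and 55.7 in PBS. Each ratio rests on the few Igf2 reads, 2 in each UCN1 library.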
